A study of Homo sapiens with 6 samples.

Results

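FGF8, FGF17 and FGF18 encode secreted growth factors of the same FGF subfamily, and their chromatin was examined in neural progenitors collected on day 11 of a midbrain dopaminergic protocol. The cells were grown from H9 (WA-09), an established human embryonic stem cell line. Each gene was represented by a fixed window of genome build hg19. The FGF8 window was chromosome 10 from 103520001 to 103550000 (30 kb), the FGF17 window was chromosome 8 from 21890001 to 21916000 (26 kb), and the FGF18 window was chromosome 5 from 170837001 to 170895000 (58 kb). Members were the peaks that overlapped a window by at least 1 bp, 74 of the 142800 peaks in 4 peak lists. The lists came from chromatin immunoprecipitation followed by sequencing (ChIP-seq) for H3K4me3 and for H3K27me3, each in a Low-Chir and a Boost-Chir culture. A peak is a stretch where the antibody library held more reads than its background. Of the 44022 H3K4me3 peaks of the Low-Chir list 11 were members, and of the 46793 of the Boost-Chir list 17 were. For H3K27me3 these numbers were 25 of 25725 and 21 of 26260.

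All cultures received SHH C25II, LDN, SB431542 and 0.7 µM CHIR99021, an inhibitor of the kinase GSK3 that activates canonical WNT signalling. Boost-Chir cultures were then given 7.5 µM of CHIR99021 from day 4 to day 10, and 3 µM was used from day 10. The concentration given to Low-Chir cultures over days 4 to 10 is not stated in the labels. Each mark had 1 library per condition, from 1 cell line, so no difference below has a replicate check and no p-value is given. An input library of each culture served as the background of its peaks.

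FGF8 is the signal of the isthmic organizer, the group of cells at the border of midbrain and hindbrain that patterns the tissue on either side. FGF17 and FGF18 are made in and around the same territory, in wider domains, and all members of the subfamily act through FGF receptors with the help of heparan sulfate. WNT1 and FGF8 signals sustain each other across that border. H3K4me3 marks the start regions of active and poised genes, and H3K27me3 is deposited by Polycomb repressive complexes over silent developmental genes. A region that carries both marks in a bulk culture may do so on the same chromosome or in different cells.

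In the reference gene table (GRCh38.p14), FGF8 lies between FBXW4 and NPM3, FGF17 between NPM2 and DMTN, and FGF18 between NPM1 and SMIM23, counting protein-coding genes. Each of the 3 FGF genes thus neighbours a nucleophosmin gene. No hg19 annotation was used, so a peak could not be placed in an exon, an intron or a promoter, and a peak in a window may belong to a neighbour of the gene that names it. For the same reason the neural progenitor label was not checked against marker genes, and other genes of the FGF pathway were not examined.

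The 3 windows did not differ alike between the conditions. In the FGF8 window H3K27me3 covered 6984 bp in Low-Chir against 945 bp in Boost-Chir, while H3K4me3 covered 4409 against 8983 bp. In the FGF17 window H3K27me3 covered 17911 and 7705 bp, and H3K4me3 had no peak in Low-Chir and 3034 bp under 6 peaks in Boost-Chir. In the FGF18 window both marks differed less, with 5244 and 3991 bp of H3K27me3 and 855 and 973 bp of H3K4me3. With only the stronger 50% of each list, H3K27me3 there covered 4992 and 1642 bp. At FGF8 and FGF17, then, H3K27me3 was shorter and H3K4me3 longer in Boost-Chir, and at FGF18 the differences were smaller.

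**Figure D1:**
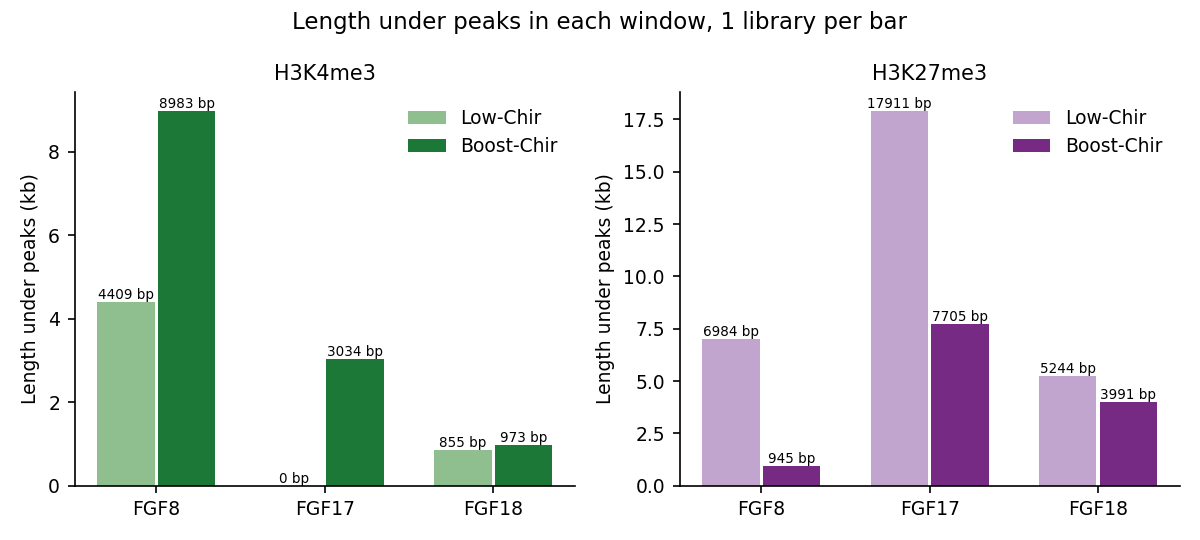
Length under peaks (kb on the axis, bp above each bar) of H3K4me3 (left) and H3K27me3 (right) in the windows of FGF8, FGF17 and FGF18, with 1 bar for each library. H3K4me3 was longer in Boost-Chir at FGF8 (4409 and 8983 bp) and FGF17 (0 and 3034 bp), and H3K27me3 shorter at FGF8 (6984 and 945 bp) and FGF17 (17911 and 7705 bp).

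FGF8 carried H3K27me3 in Low-Chir as a row of 7 peaks from 103530954 to 103539736 on chromosome 10, with a widest gap of 1061 bp. The longest of them ran over 2862 bp, from 103535919 to 103538780, and was also the highest. Its fold, the authors' ratio of reads at the summit to the local background, was 7.60, above 97.1% of the peaks in its list. Boost-Chir had 3 short peaks in this stretch, of 461, 238 and 246 bp, between 103533898 and 103536415. Their folds were 4.19, 4.45 and 4.44. The Low-Chir peaks of 741 bp from 103532301 (fold 6.18, 25 reads) and of 674 bp from 103539063 (fold 5.25, 22 reads) met no Boost-Chir peak. Of the 7 Low-Chir peaks 4 met one, and over the whole Low-Chir H3K27me3 list 14646 of 25725 did, so unmet peaks were common. Of the 6984 bp under H3K27me3 in Low-Chir, 852 bp (12.2%) were also under H3K27me3 in Boost-Chir.

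The heights of the summits were compared in reads. These were recovered from the fold and p-value of each peak, and depth is expressed as the background that a library's reads would give if spread evenly over the genome. That background of the H3K27me3 libraries was 3.12 reads for Low-Chir and 3.03 for Boost-Chir. The 7 Low-Chir summits of FGF8 held 16 to 31 reads, or 5.12 to 9.93 times this background. The 3 Boost-Chir summits held 17, 19 and 17 reads, or 5.61, 6.26 and 5.61 times. The 4 Low-Chir peaks that met a Boost-Chir peak gave ratios of Boost-Chir to Low-Chir reads per unit of depth from 0.565 to 0.796. At the highest Low-Chir peak, whose summit was 1154 bp from that of its Boost-Chir partner, the ratio was 0.565, with an exact 95% interval of 0.293 to 1.05 that covers counting error only. Each of these intervals included 1, so the heights of single summits could not be told apart from counting error. The larger difference was in how much of the stretch was called, but that length rests on the same low counts and no error was estimated for it. Over all 14646 H3K27me3 peaks of Low-Chir that met a Boost-Chir peak, the median ratio was 0.981 and 5% of them were below 0.705.

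H3K4me3 in the FGF8 window formed a group of peaks within the stretch of H3K27me3 and another beyond its upper end. Inside the outer edges of the H3K27me3 peaks, H3K4me3 covered 2238 bp in Low-Chir against 5675 bp in Boost-Chir, each with 5 peaks. Most of the difference came from a Boost-Chir peak of 4006 bp from 103532718 to 103536723, longer than 95.79% of the peaks in its list. In Low-Chir the same stretch held peaks of 266 and 406 bp. The summits at 103535644 (Low-Chir) and 103535712 (Boost-Chir) were 68 bp apart and held 14 and 28 reads. Per unit of depth the ratio was 1.66 (0.843 to 3.40), and the fold was 4.67 in Low-Chir against 3.97 in Boost-Chir. The fold was the lower one in Boost-Chir because it divides by the local background, which was 2.21 reads in Low-Chir against 6.31 in Boost-Chir. At the upper end of the stretch, summits 27 bp apart at 103538795 and 103538822 held 21 and 17 reads, a ratio of 0.670 (0.332 to 1.33), with folds of 6.85 and 4.86. H3K4me3 within the H3K27me3 stretch of FGF8 was thus wider in Boost-Chir, while the 5 pairs of overlapping peaks there had ratios from 0.670 to 1.93 with intervals that all included 1. With gaps of up to 3 kb filled, the H3K4me3 of the whole window was 972 bp longer in Boost-Chir, so the width is that of the called peaks and not of the span they occupy.

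The highest H3K4me3 peaks of the FGF8 window lay beyond the H3K27me3 stretch, on the side where NPM3, which encodes a histone chaperone of the nucleophosmin family, follows FGF8 in the gene table. In Low-Chir, peaks from 103542108 to 103543163 and from 103543232 to 103543946 each had a fold of 10.5 and 34 reads. In Boost-Chir 1 peak of 2282 bp, from 103541535 to 103543816, had a fold of 12.1 and 45 reads. The ratio of reads per unit of depth was 1.10 (0.686 to 1.76), near the median of 1.18 over 36789 Low-Chir H3K4me3 peaks that met a Boost-Chir peak. A weak Low-Chir peak of 200 bp from 103541848, with 13 reads, met the same Boost-Chir peak at a ratio of 2.86 (1.52 to 5.79), but their summits were 1356 bp apart. Of the ratios of all 36789 peaks, 5% were below 0.764 and 5% above 3.31, so 2.86 was within the common range. H3K4me3 outside the stretch covered 2171 bp in Low-Chir against 3308 bp in Boost-Chir. The stretch spans all H3K27me3 peaks of the window in both lists, so by definition none of this length is under H3K27me3. The nearest H3K27me3 peak was 2371 bp from the highest H3K4me3 peak in Low-Chir against 5119 bp in Boost-Chir. Whether these peaks belong to FGF8 or to NPM3 cannot be told apart without an hg19 annotation. Of the 4574 bp by which H3K4me3 was longer in the whole window, 3437 bp lay within the H3K27me3 stretch.

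**Figure D2:**
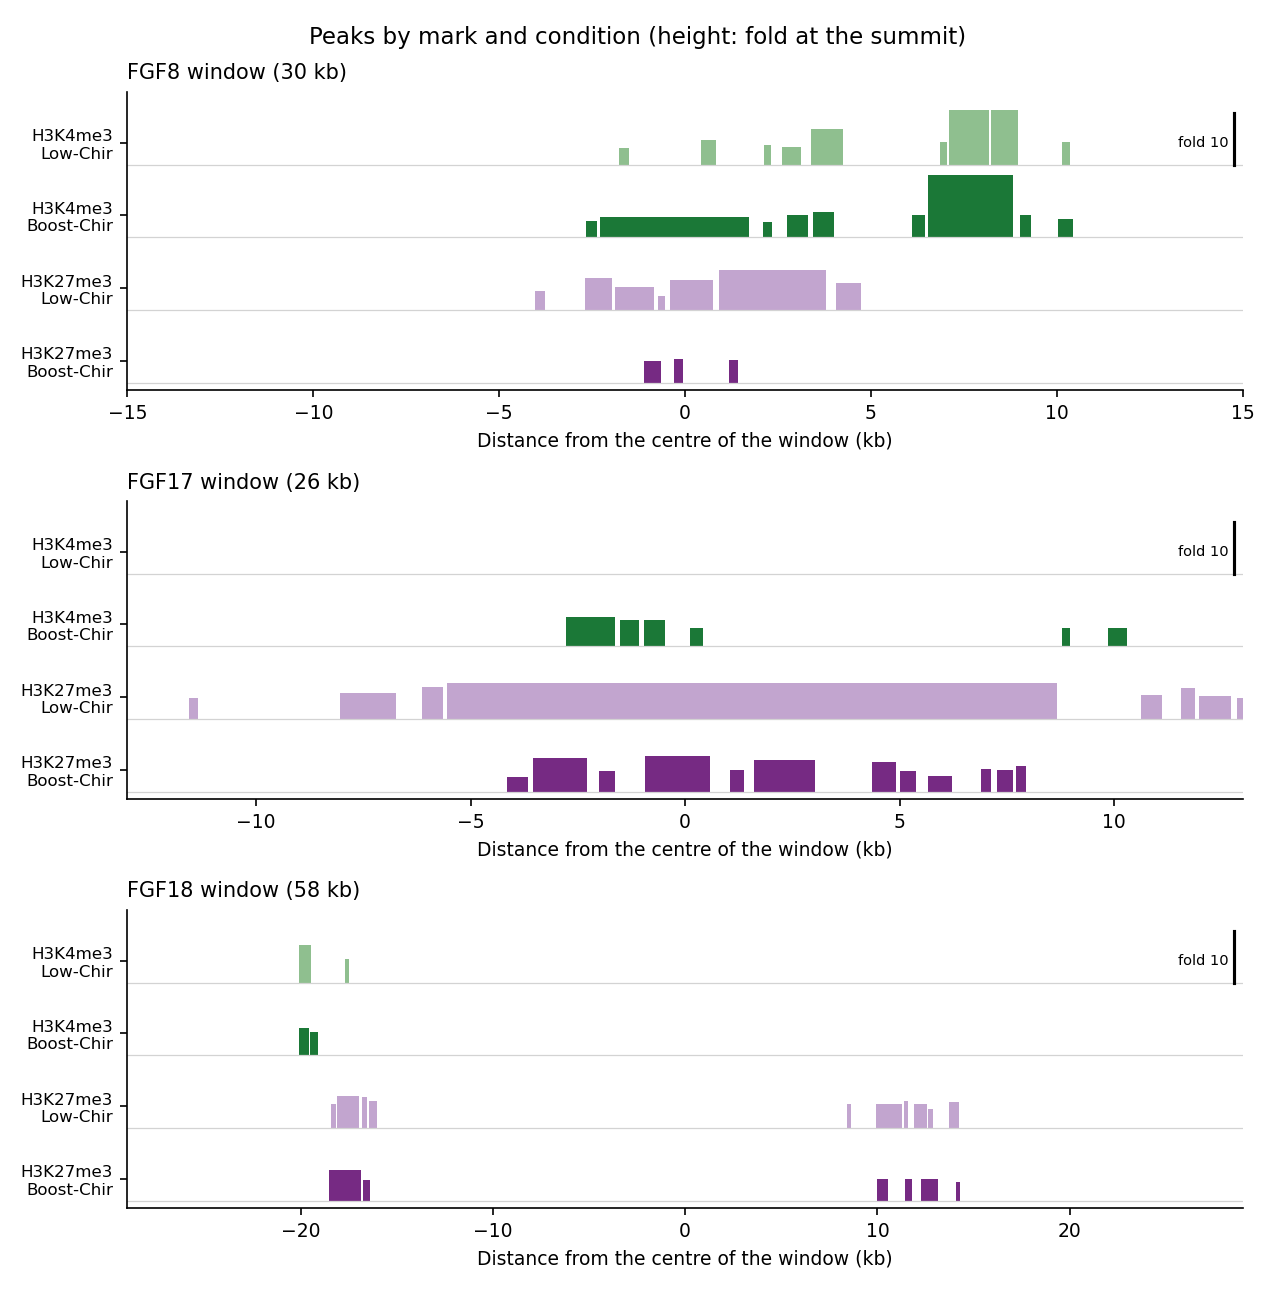
Peaks of both marks in the 3 windows. The horizontal axis is the distance from the centre of each window in kb, each row is 1 library, the width of a box is the length of a peak, and its height is the fold at the summit (bar: fold of 10). In the FGF8 window 7 H3K27me3 peaks in Low-Chir stand against 3 in Boost-Chir, and in the FGF17 window a peak of 14213 bp in Low-Chir stands against 12 shorter ones.

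FGF17 lay in the longest stretch of H3K27me3 among the 3 windows. In Low-Chir a single peak of 14213 bp from 21897448 to 21911660 was longer than 99.63% of the peaks in its list, and 7 further peaks extended the mark from 21891442 to the upper edge of the window. Together they covered 68.9% of the 26 kb. In Boost-Chir the mark covered 29.6% of the window in 12 peaks between 21898838 and 21910958, the longest 1505 bp. All 12 lay over the long Low-Chir peak, and 0 bp of H3K27me3 in Boost-Chir fell outside the Low-Chir peaks. The other 7 Low-Chir peaks, on both sides of the long one, met no Boost-Chir peak. Among them were peaks of 1317 bp from 21894952 (fold 4.92, 26 reads) and of 753 bp from 21914971 (fold 4.34, 18 reads). Over the whole list 14646 of the 25725 Low-Chir H3K27me3 peaks met a Boost-Chir peak, so unmet peaks were common.

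The highest H3K27me3 summits of FGF17 were 151 bp apart, at 21903188 (Low-Chir) and 21903037 (Boost-Chir). They held 45 and 27 reads, or 14.4 (10.5 to 19.3) and 8.90 (5.87 to 13.0) times the genome-wide background. The ratio per unit of depth was 0.618, with an interval of 0.369 to 1.02. The folds of these peaks were 6.98 and 6.85 and do not show this difference, since the local background was 5.50 reads in Low-Chir against 3.07 in Boost-Chir. The other Boost-Chir summits held 15 to 25 reads. Of the bases under H3K27me3 in Low-Chir, 43.0% were thus also under it in Boost-Chir at FGF17, against 12.2% at FGF8.

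H3K4me3 in the FGF17 window was found in Boost-Chir, where 4 peaks stood close together from 21900227 to 21903414. The first, of 1151 bp, had a fold of 5.72 and 20 reads. The next 2, of 453 and 500 bp, had a fold of 5.13 and 18 reads each, and the fourth, of 305 bp, had a fold of 3.53 and 14 reads. A further 2 peaks, of 200 and 425 bp at 21911782 and 21912870, had 12 reads each and a fold of 3.54. These folds were modest, since that of the highest peak exceeded 64.4% of its list. Scaled down to the lower depth of Low-Chir, the 6 summits would correspond to 9.93 to 16.6 reads, and the lowest summit of any peak in the Low-Chir list held 8. Summits of this height were thus within the range of the Low-Chir list, but whether a summit is called also depends on the local background. For H3K27me3 in Low-Chir that background was 5.50 reads at 21903188, against 3.12 genome-wide. These are reads on the scale of the H3K27me3 library and cannot be set directly against H3K4me3 summits. The genome-wide background of the Low-Chir H3K4me3 library was 2.21. The H3K4me3 reads and background at these places in Low-Chir are not given by a peak list, so it is open whether such summits would have been called. Of the 3034 bp of H3K4me3 in Boost-Chir, 2409 bp (79.4%) were under H3K27me3 in Low-Chir and 1630 bp (53.7%) were under H3K27me3 in Boost-Chir.

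FGF18 showed the smallest differences. Its leading H3K4me3 peak stood in the same narrow place in both conditions. In Low-Chir a peak of 646 bp from 170845913 to 170846558 had a fold of 7.19 and 23 reads. In Boost-Chir peaks of 525 and 448 bp, from 170845904 to 170846428 and from 170846485 to 170846932, had folds of 5.21 and 4.47 and 23 and 18 reads. The leading summits, 176 bp apart, gave a ratio per unit of depth of 0.828 (0.444 to 1.54). A second Low-Chir peak of 209 bp at 170848305, with a fold of 4.49 and 14 reads, lay on H3K27me3 and met no Boost-Chir peak. Over the whole list 36789 of the 44022 Low-Chir H3K4me3 peaks met one.

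H3K27me3 at FGF18 lay in 2 separate groups, at some distance from each other and beside H3K4me3. The gap between the groups was 24413 bp in Low-Chir against 26390 bp in Boost-Chir. The first group, from 170847484 to 170849988, covered 2060 bp in Low-Chir against 1980 bp in Boost-Chir, a difference of -80 bp. The second, from 170874402 to 170880275, covered 3184 and 2011 bp. The summits held 14 to 25 reads (Low-Chir) and 14 to 23 (Boost-Chir), and the folds reached 6.18 and 5.92. For the 9 Low-Chir peaks that met a Boost-Chir peak, the ratio of reads per unit of depth ran from 0.659 to 1.18. The H3K27me3 difference over the window, -1253 bp, was -3350 bp with the stronger 50% of each list, which held 9 of the 10 Low-Chir peaks and 1 of the 6 Boost-Chir peaks. The highest H3K4me3 peak was 1029 bp from the nearest H3K27me3 peak in Low-Chir against 1055 bp in Boost-Chir. Apart from 209 bp in Low-Chir, FGF18 had H3K4me3 and H3K27me3 side by side, while the marks overlapped at FGF8 in both conditions and at FGF17 in Boost-Chir.

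Of the 3 genes 1, FGF18, was matched in the RefSeq promoter table. Its sequence is shown for its CpG content, a feature of promoters that carry H3K4me3 or H3K27me3, and for the core motif of TCF and LEF factors, the DNA-binding partners of beta-catenin in WNT signalling. The 250 bases that precede the FGF18 start are given for GRCh38.p14, chr5:171419397-171419646, plus strand, 5′ to 3′. Capitals mark a match to the TCF/LEF core.
FGF18: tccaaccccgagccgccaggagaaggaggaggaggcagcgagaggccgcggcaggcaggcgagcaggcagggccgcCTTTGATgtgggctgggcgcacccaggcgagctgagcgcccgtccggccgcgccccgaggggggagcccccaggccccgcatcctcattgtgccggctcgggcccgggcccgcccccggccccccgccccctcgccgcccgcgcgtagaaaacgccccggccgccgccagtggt
The core was searched on both strands in 4 forms, which are CTTTGAA, the form CTTTGAT, the form CTTTGTA and the form CTTTGTT, and matches on a strand cannot overlap. The match CTTTGAT begins 174 bases before the start. A match to any of the 4 forms occurred in 4199 of 35116 promoter sequences of this length, a share of 12%, so its presence here is a description and does not show binding. The sequence is 78.8% G and C, against a median of 58.0%, and holds 31 CpG dinucleotides, 0.800 of the number its base composition gives, against a median of 0.558. Its place relative to the hg19 peaks was not determined, since coordinates were not converted between builds.

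Base by base, the windows differed in how the marks exchanged. FGF8 in Low-Chir had 2544 bp under H3K4me3 alone, 5119 bp under H3K27me3 alone and 1865 bp under both. In Boost-Chir it had 8038 bp under H3K4me3 alone, 0 bp under H3K27me3 alone and 945 bp under both. All of the H3K27me3 at FGF8 in Boost-Chir was thus also under H3K4me3. Of the 6132 bp that were under H3K27me3 in Low-Chir and not in Boost-Chir, 4143 bp (67.6%) were under H3K4me3 in Boost-Chir. At FGF17 the corresponding stretch was 10206 bp, of which 779 bp (7.63%) were under H3K4me3 in Boost-Chir and 9427 bp were under neither mark. FGF8 also had more H3K4me3 in Boost-Chir, 8983 bp against 3034 bp at FGF17. The share of such bases over the genome was not computed. FGF17 had 17911 bp of H3K27me3 alone in Low-Chir. In Boost-Chir it had 6075 bp of H3K27me3 alone, 1630 bp of both and 1404 bp of H3K4me3 alone. At FGF18, of 2183 bp under H3K27me3 in Low-Chir alone, 0 bp were under H3K4me3 in Boost-Chir.

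**Figure D3:**
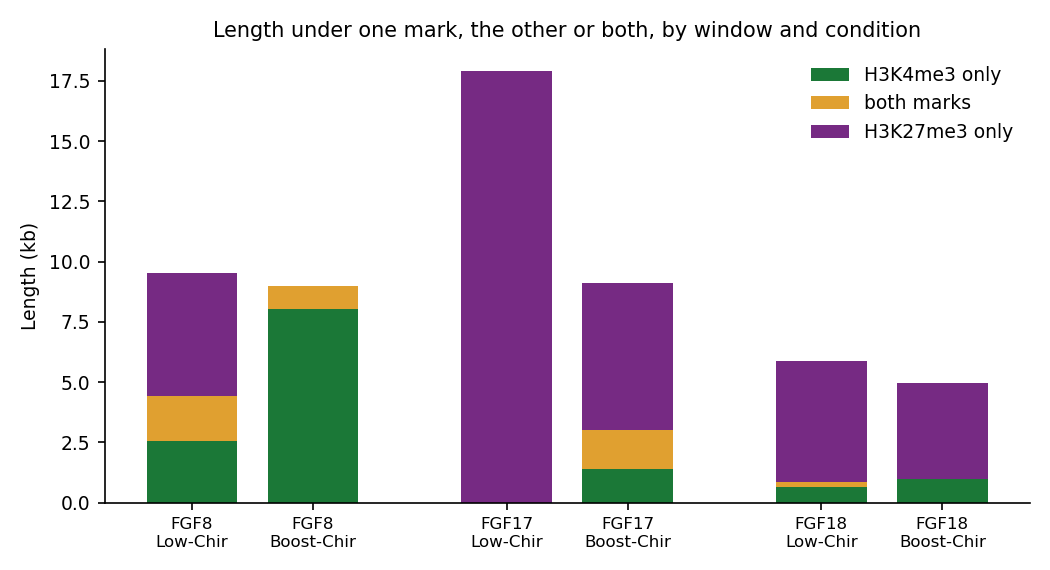
Length (kb) under H3K4me3 alone, under both marks and under H3K27me3 alone, for each window and condition. At FGF8 the 5119 bp under H3K27me3 alone in Low-Chir stand against 0 bp in Boost-Chir. FGF17 had 17911 and 6075 bp of it, and FGF18 had 5035 and 3991 bp.

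These differences were set beside the whole genome, where H3K4me3 was in general longer and H3K27me3 slightly shorter in Boost-Chir. The genome was divided into consecutive tiles of each window's width, and tiles with a peak of the mark in either list were counted. H3K4me3 was at least 2 kb longer in Boost-Chir in 7.81% of 16245 tiles of 30 kb, a limit that FGF8 passed with 4574 bp. It was so in 7.07% of 16938 tiles of 26 kb, where FGF17 passed with 3034 bp, and in 12.2% of 13230 tiles of 58 kb, where FGF18 did not pass with 118 bp. The median H3K4me3 difference of the tiles was 534, 511 and 642 bp in the same order, so FGF18 was below the general shift. Among tiles that also held at least 5 kb of H3K27me3 in Low-Chir, the medians were smaller, at 254, 234 and 364 bp. The depth of the H3K4me3 libraries stood at 1.21 to 1, with Boost-Chir the deeper. Leaving out peaks that would miss the list's weakest p-value at the lower depth left the lengths in all 3 windows as they were. That filter drops whole peaks by their summits and shortens none, so it cannot show whether depth widened the called peaks. Any such part of depth was not tested.

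H3K27me3 was at least 5 kb shorter in Boost-Chir in 1.46% of the 7417 tiles of 30 kb, in 1.32% of the 7702 tiles of 26 kb and in 1.95% of the 6166 tiles of 58 kb. Over loci of peaks joined within 3 kb, in place of tiles, the shares past the limits were 7.18% for H3K4me3 and 1.22% for H3K27me3, both over 1.5 times below those of 58 kb tiles. Most tiles held less than 5 kb of H3K27me3 and could not pass. Among tiles with at least 5 kb of H3K27me3 in Low-Chir, as all 3 windows had, the shares were 8.84% of 1222, 8.13% of 1254 and 10.3% of 1168. FGF8 passed with a difference of -6039 bp and FGF17 with -10206 bp, and FGF18 did not with -1253 bp. The Boost-Chir to Low-Chir ratio of these tiles had a median of 0.911, 0.910 and 0.905, and the windows of FGF8, FGF17 and FGF18 had ratios of 0.135, 0.430 and 0.761. A ratio at or below that of the window was found in 3.19% of the tiles for FGF8, 8.77% for FGF17 and 27.1% for FGF18. The Boost-Chir H3K27me3 library had 0.971 times the depth of its partner.

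FGF8 and FGF17 passed both limits at once. Among tiles with at least 5 kb of H3K27me3 in Low-Chir and an H3K4me3 peak in either list, both limits were passed by 3.08% of 974 tiles of 30 kb, 2.97% of 975 tiles of 26 kb and 3.51% of 996 tiles of 58 kb. The windows were chosen for their genes and not placed on the tile grid, and the 3 genes were proposed with results of these data in view, so these shares describe how common such differences were and are no test.

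**Figure D4:**
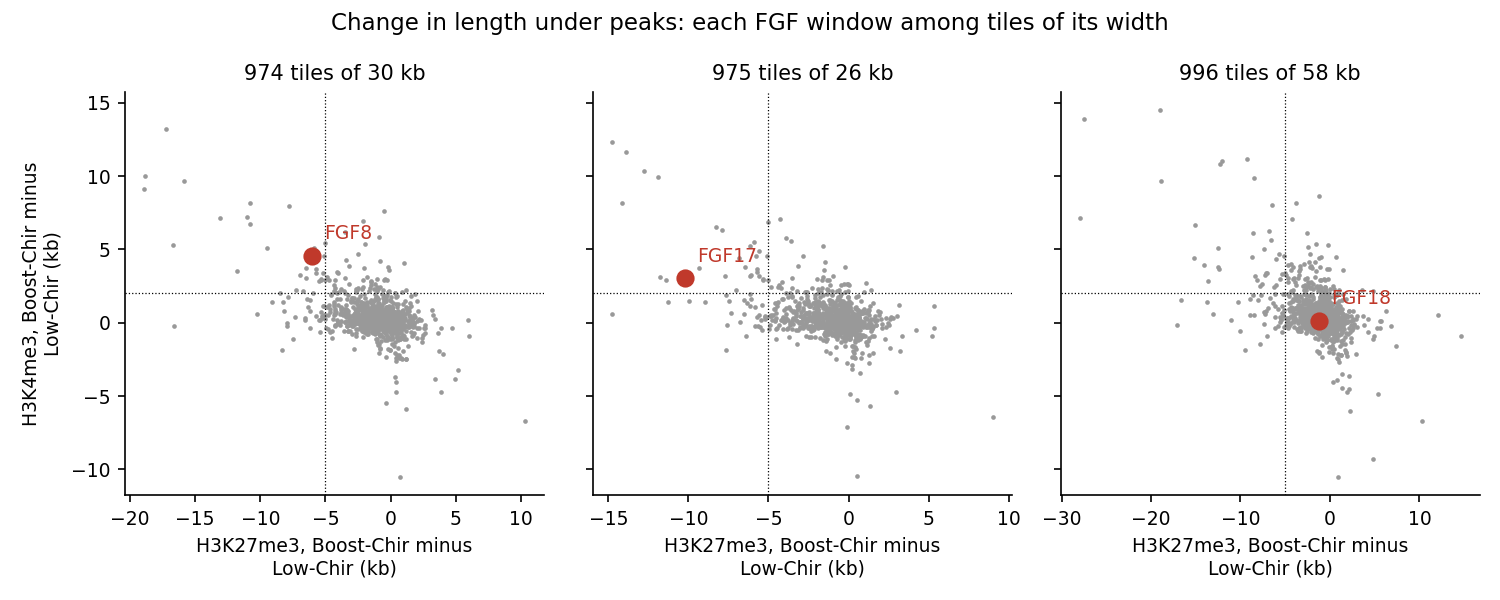
Boost-Chir minus Low-Chir length under peaks in kb, H3K27me3 on the horizontal and H3K4me3 on the vertical axis. Grey points are all tiles of the window's width with at least 5 kb of H3K27me3 in Low-Chir and an H3K4me3 peak (974, 975 and 996 tiles), the red point is the FGF window, and dotted lines mark H3K4me3 2 kb longer and H3K27me3 5 kb shorter. FGF8 and FGF17 lie beyond both lines with few other tiles, and FGF18 lies among the bulk.

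The levels of the marks ordered the 3 genes differently in the 2 conditions. By length of H3K27me3 the order in Low-Chir was FGF17 (17911 bp), FGF8 (6984 bp) and FGF18 (5244 bp), and in Boost-Chir it was FGF17 (7705 bp), FGF18 (3991 bp) and FGF8 (945 bp). By length of H3K4me3 it was FGF8, FGF18 and FGF17 in Low-Chir and FGF8, FGF17 and FGF18 in Boost-Chir. The highest H3K4me3 fold was 10.5 at FGF8 and 7.19 at FGF18 in the Low-Chir list, and 12.1 at FGF8, 5.72 at FGF17 and 5.21 at FGF18 in Boost-Chir. Within the H3K27me3 stretch of FGF8 it was 6.85 in Low-Chir against 4.86 in Boost-Chir. In Boost-Chir the leading summits of FGF17 and FGF18 held 20 and 23 H3K4me3 reads, with overlapping intervals of 4.57 to 11.6 and 5.45 to 12.9 times the genome-wide background.

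**Figure D5:**
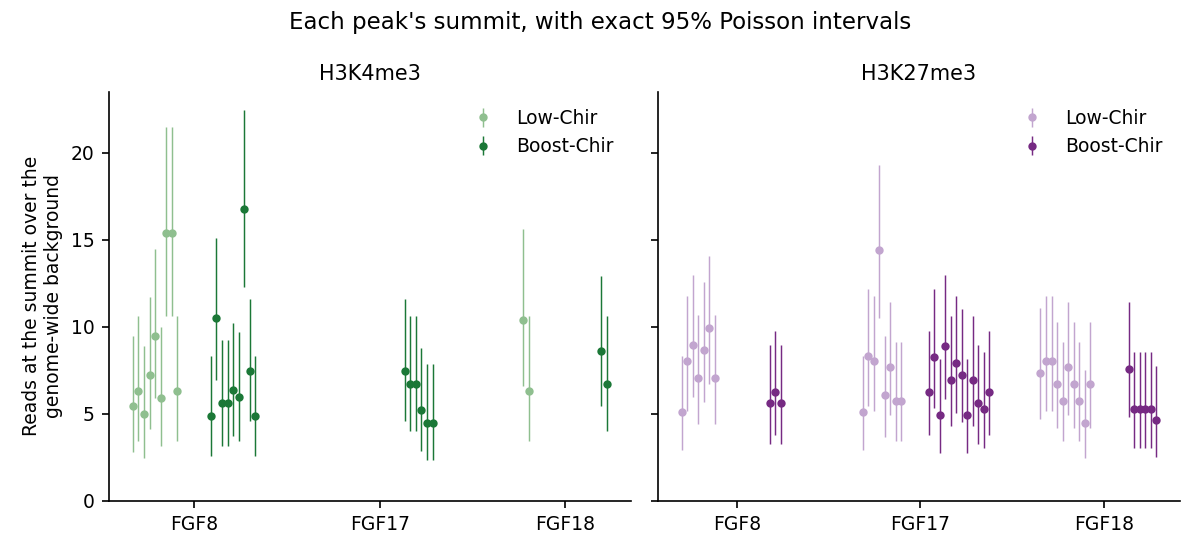
Reads at the summit of every peak in the 3 windows, divided by the genome-wide background of the library (2.21 and 2.67 reads for H3K4me3, 3.12 and 3.03 for H3K27me3, in Low-Chir and Boost-Chir). Points are single peaks in order of position and bars are exact 95% Poisson intervals. Most intervals overlap, and the highest point for H3K27me3 is the long Low-Chir peak of FGF17 at 14.4.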

How the data were processed

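The 4 antibody samples each had 1 deposited peak list, and the 2 input samples were not analysed here as lists. The submitters' processing notes name cutadapt 1.6, BWA 0.7.12, Picard and build hg19. No caller or cut-off for the peaks is named (not given in the sources used here). The names of the deposited peaks pair each antibody library with the input of the same culture. The authors' lists give for each peak a fold ratio over the local background, −log10 values of p and of q, and a score. That deposited score repeats the −log10 q, multiplied by 10 and without decimals, and was left aside.

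Positions are counted from 1. Lengths are unions of peaks clipped to a window. Reads at a summit were solved from the authors' fold, taken as (reads + 1) over (background + 1), and their p-value, taken as a Poisson tail. For 100% of peaks the whole reads found gave back the authors' −log10 p within 0.001. The lists state no total depth, and the lowest genome-wide background stands in for it. Median summits held 17 and 18 reads for H3K4me3 and 20 and 18 for H3K27me3, in Low-Chir and Boost-Chir. Ratios carry exact conditional binomial intervals and single summits exact Poisson intervals, both at 95% and for counting error only. For the genome-wide ratios, each Low-Chir peak was set against the highest Boost-Chir peak over it. The limits of 2 kb and 5 kb mark a difference. The text names, by rule, the 3 genes, the peak with the highest fold per list, peaks of at least 500 bp in 1 condition alone, and the edges of runs. Other peaks named were chosen after their values were seen. The members and limits were chosen with earlier results of these data known. The code was tested on simulated data. Python 3.11.15, numpy 2.4.6, scipy 1.17.1 and matplotlib 3.10.9 were used.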

Additional observations from a re-analysis of the deposited data

How the results depend on the processing

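No paired analysis was possible because 1 library stands for each mark in each culture. Of 45 alternatives for the covered lengths, 39 stayed within 1.5 times the reported difference with the same direction. At FGF8 and FGF17, H3K4me3 was longer in Boost-Chir in all 16 alternatives and at least 2 kb longer in 15, and H3K27me3 was at least 5 kb shorter in all 14. Many of the alternatives left the same peaks in a window and returned the reported value unchanged. The H3K27me3 difference at FGF8, for example, was -6039 bp with the window widened and with it narrowed. These tallies therefore count reruns on the same peaks and are not independent checks. With gaps of up to 3 kb filled, the H3K4me3 difference was 972 bp at FGF8, under the limit of 2 kb, since the spans that the peaks occupied were 12115 and 13087 bp. It was 4701 bp at FGF17 and -1572 bp at FGF18. With the top 50% of each list by −log10 q, the FGF18 differences were 327 bp for H3K4me3 and -3350 bp for H3K27me3, so the small H3K27me3 difference of FGF18 depends on weak peaks. Counting H3K4me3 only between the outer edges of the H3K27me3 peaks, an alternative chosen after seeing the data, gave -209 bp at FGF18. The FGF18 H3K4me3 difference thus has no settled sign. Of 70 alternatives for peak numbers, folds, overlap and tile shares, 29 moved, by over 1.5 times or, for a tile share, outside its exact 95% binomial interval. With peak loci joined within 3 kb in place of tiles, H3K4me3 was past its limit in 7.18% of loci and H3K27me3 in 1.22%, against 12.2% and 1.95% of 58 kb tiles, 7.81% and 1.46% of 30 kb tiles, and 7.07% and 1.32% of 26 kb tiles. The bp under both marks at FGF8 were 560 (Low-Chir) and 484 (Boost-Chir) with the top 50% of peaks, and 6502 and 2518 with gaps filled. With 1 library per condition and summits of 11 to 45 reads, single peaks are measured with wide counting error, and a stretch without a peak is not shown to lack the mark.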

Other observations

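No peak of either mark lay within 10 kb beside the windows of FGF8 and FGF18. H3K27me3 at FGF17 did not end with the window. It went on toward the DMTN side, and the locus joined within 3 kb ran from 21894952 to 21929487 on chromosome 8, with 27358 bp under peaks in Low-Chir against 12257 bp in Boost-Chir. In this continuation a Low-Chir peak of 3850 bp, from 21920178 to 21924027, met 4 Boost-Chir peaks. An H3K4me3 peak beside its upper end had a fold of 5.29 and 16 reads in Low-Chir (21924088 to 21924417) and a fold of 9.72 and 35 reads in Boost-Chir (21923749 to 21924387). The ratio of reads per unit of depth was 1.81 (0.976 to 3.50).

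On the NPM2 side of FGF17, overlapping H3K4me3 peaks from 21882335 (Low-Chir) and 21881911 (Boost-Chir) held 14 and 17 reads, a ratio per unit of depth of 1.0 (0.466 to 2.20). The H3K27me3 peaks over the same place, from 21881926 and 21881858, held 27 and 24 reads, a ratio of 0.915 (0.506 to 1.65).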
